A study of Mus musculus with 6 samples.

Results

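Imprinted genes are expressed mainly or only from the chromosome inherited from one parent. A total of 37 mouse imprinted genes were followed among the 29955 genes of the deposited RNA-seq table and were chosen by symbol as genes known for parent-of-origin expression. They were grouped into 15 loci or regions, of which the clusters around Dlk1 and Dio3, Kcnq1, Peg3, Peg10 and Sgce, and the Prader-Willi/Angelman region hold 3 or more of them. In 33 of the 37 there were enough reads to compare the genotypes. The other four were Phlda2, Slc22a3, Magel2 and Rasgrf1.

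RNA was sequenced from 3 Rnf40+/+ and 3 Rnf40-/- samples of mouse embryonic fibroblasts (MEFs), primary cells grown from embryos, all at passage 3. RNF40 is a subunit of the ubiquitin ligase that attaches a single ubiquitin to histone H2B. The knockout cells came from embryos with loxP sites around exons 3 and 4 of both Rnf40 alleles and a Cre-ERT2 transgene at Rosa26, a recombinase that is expressed in all cells and switched on by 4-hydroxytamoxifen (4-OHT). They received 250 nM 4-OHT for 5 days and were then kept for 3 days without it. The sources used here do not say whether the Rnf40+/+ cells carried Cre-ERT2 or received 4-OHT, so the deletion and the treatment cannot be told apart. They also do not say that the samples of a genotype came from separate embryos, so that the p values measure only the spread between these samples.

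In an imprinted cluster, a control region that is methylated on one parental chromosome sets which genes are read from which chromosome. Many clusters pair protein-coding genes of one parental chromosome with a long non-coding RNA of the other. Imprinted genes are known for their part in fetal growth and placental function, and many are more active in embryonic cells such as MEFs than in adult tissues. The reads of the table are summed over both alleles, so the values give total RNA of each gene and not the allele it came from. In RNA from a whole culture, fewer cells that express a gene and less RNA per cell cannot be told apart.

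Values are normalized read counts, meaning that the reads of each gene were scaled by a single size factor for the whole library. The libraries held between 17053436 and 26344170 reads on genes, and 3 reads, taken as the limit of detection, corresponded to a normalized count between 2.40 and 3.58. Rnf40 itself had 1278, 1195 and 1096 normalized counts in Rnf40+/+ and 439, 519 and 487 in Rnf40-/- libraries, which is 40.5% of the Rnf40+/+ mean. The loxP sites flank only exons 3 and 4, so a count over the whole gene need not vanish. From a Western blot of RNF40 and H2Bub1, the authors reported effective deletion and loss of H2Bub1. All 10 fibroblast markers were detected, and each was lower in Rnf40-/- cells, with a summed level of 678900 to 749000 in Rnf40+/+ against 405500 to 408400 in Rnf40-/- libraries. Within the Rnf40+/+ group, replicate 3 stood apart from the others (chi-square per gene of 29.0 and 26.3, against 8.09 between replicates 1 and 2). It also had the highest summed level of macrophage markers, 9132 against 5041 and 5676, with 3278 to 3618 in the Rnf40-/- libraries. Of the 7 macrophage markers in the table, 2 were called lower and 2 higher in Rnf40-/- cells, so these markers did not move together. Endothelial markers had summed levels of 46.9 to 143 in Rnf40+/+ and 173 to 265 in Rnf40-/- libraries (3 of 4 called higher), and adipocyte markers 32.2 to 67.1 and 120 to 142 (1 of 3 called higher, Adipoq at 0 in all). Replicate 1 had the highest level of muscle markers (434 against 130 and 117, nearly all from Des) and of the Y-linked gene Ddx3y (81.2 against 7.14 and 2.40). Whether these differences in marker levels reflect cell make-up, or had a part in the values of the imprinted genes, was not tested.

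Of the 33 imprinted genes tested, 16 (48.5%) were lower and 9 (27.3%) were higher in Rnf40-/- MEFs at an adjusted p under 0.05 from limma with Benjamini-Hochberg adjustment over all genes tested. Over all 16378 genes tested, 24.1% were lower and 23.3% were higher by the same rule. The share that rose was thus near the background, and the share that fell was above it. The 9 higher genes became 4 without Rnf40-/- replicate 1 and 5 without Rnf40+/+ replicate 2 or Rnf40-/- replicate 2. They include Ascl2, which was tested only because of its reads in the Rnf40-/- group, and without it 8 of 32 were higher. For its own gene classes, the study asked for a mean above 15 and an unadjusted p under 0.05. The log2 fold change had to lie beyond 1 in either direction. The study worked with DESeq, and here these criteria were applied to the limma results. By them, 9 of the 33 (27.3%) were lower, against 5.70% of all genes tested. Of the 33, 1 (3.03%), again Ascl2, was higher, against 4.25%. The values of the 2 genotypes did not overlap for 22 of the 33 (66.7%), and the same held for 56.5% of all genes tested. The median log2 fold change was -0.28 for the imprinted genes and 0.00 for all genes (-0.0035), and the median size of the change without its sign was 0.67 against 0.33. The median over the imprinted genes moved to -0.13 without Rnf40+/+ replicate 3.

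**Figure D1:**
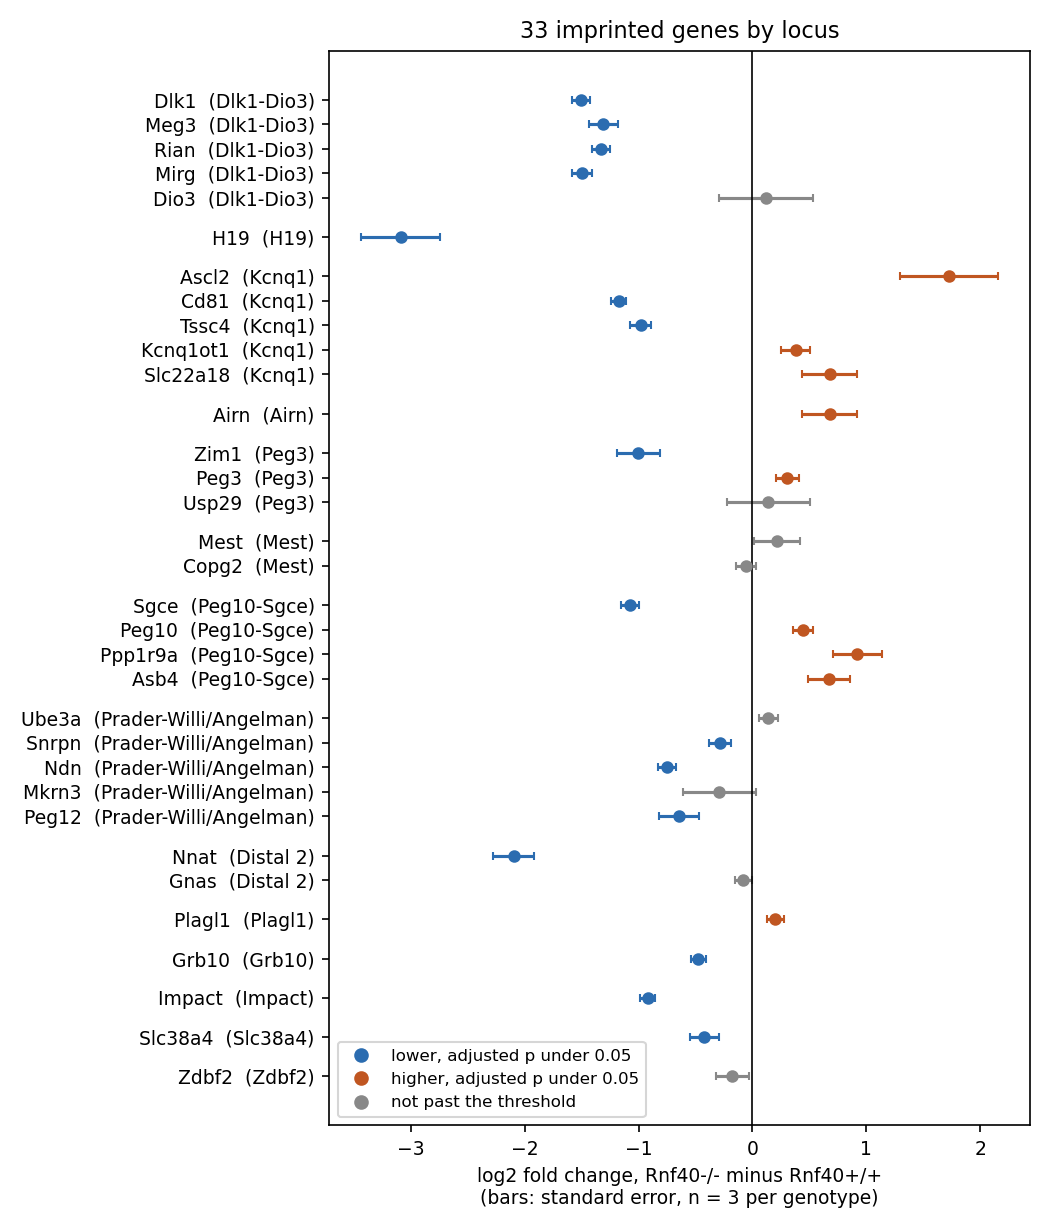
Log2 fold change (Rnf40-/- minus Rnf40+/+) of the 33 imprinted genes tested, ordered by locus, with the standard error from limma as bars (3 libraries per genotype). H19 (-3.09), Nnat (-2.10) and 4 genes of the Dlk1-Dio3 cluster lie farthest to the left, while the Kcnq1, Peg3 and Peg10-Sgce clusters hold genes on both sides of 0.

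**Figure D2:**
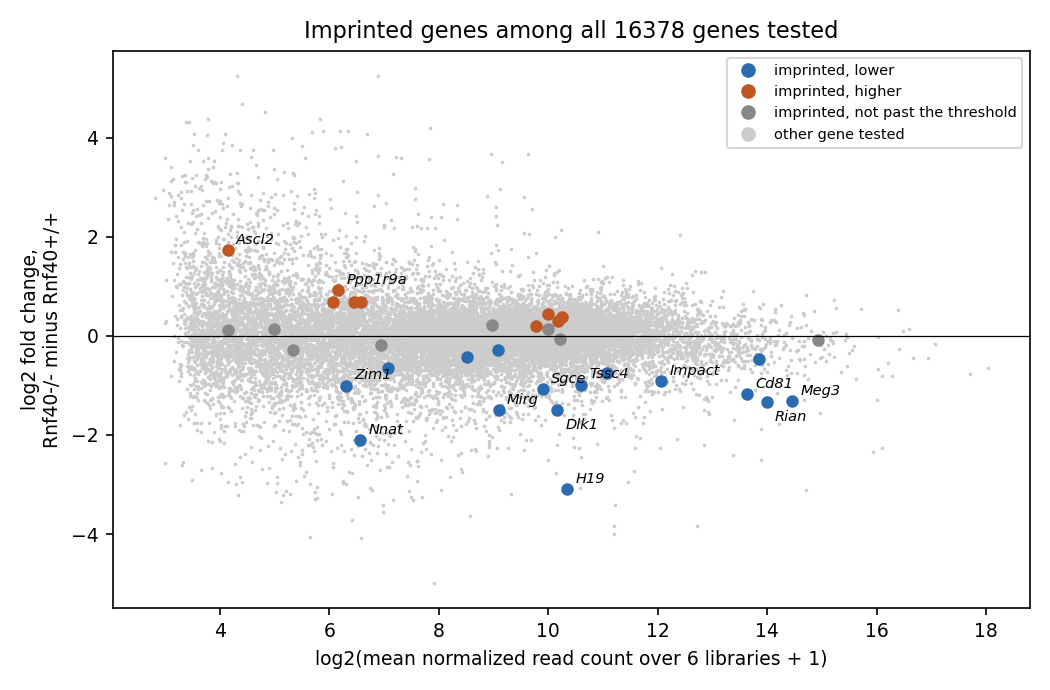
Log2 fold change against the mean normalized read count over all 6 libraries (log2 axis) for the 16378 genes tested, with the imprinted genes as large points. Several of the imprinted genes that fell, among them Meg3, Rian and Cd81, lie at the high end of the expression range, and Ascl2 lies near the low end.

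In the Dlk1-Dio3 cluster on chromosome 12, Dlk1, Meg3, Rian and Mirg fell, to between 35.3% and 40.5% of their Rnf40+/+ means, and Dio3, the other of the 5 genes, did not pass the test. The cluster holds protein-coding genes expressed from the paternal chromosome and long non-coding RNAs expressed from the maternal one, so the genes that fell came from both groups. The 5 genes together took between 0.251% and 0.289% of the reads in the Rnf40+/+ libraries and between 0.103% and 0.137% in the Rnf40-/- libraries.

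Dlk1 encodes a transmembrane protein related to the Notch ligands that restrains the differentiation of preadipocytes. It maps to bases 110691033 to 110701546 of mm9 chromosome 12 (plus strand) and has 6 exons in its longest annotated transcript. Its normalized read counts were 1708, 1750 and 1624 in the Rnf40+/+ and 567, 573 and 654 in the Rnf40-/- libraries, so that the groups were far apart compared with the spread within them (SD of 63.9 and 48.8, n = 3). The log2 fold change was -1.50 (standard error [SE] 0.079, limma adjusted p = 5.89e-08).

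Meg3, the first of the maternally expressed non-coding RNAs of the cluster, lies downstream of Dlk1 from 110779211 to 110809936. Its counts were 32498, 27250 and 35871 in Rnf40+/+ and 13394, 14929 and 10400 in Rnf40-/- cells, and its Rnf40+/+ mean of 31873 was second to that of Gnas among the 37 genes. Although its libraries varied more than those of Dlk1, the highest Rnf40-/- value stayed well under the lowest Rnf40+/+ value. The log2 fold change was -1.31 (SE 0.13, limma adjusted p = 6.87e-06).

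Rian, a non-coding RNA that is the host of many C/D box small nucleolar RNAs, lies from 110842155 to 110899919. It had counts of 23924, 23478 and 22519 in Rnf40+/+ and 9132, 10166 and 8566 in Rnf40-/- libraries. Mirg, which hosts a large group of microRNAs, lies from 110973191 to 110987665 and had counts of 812, 778 and 828 against 281, 308 and 268. Both showed very little spread between libraries of a genotype. The log2 fold changes were -1.33 for Rian (SE 0.075, limma adjusted p = 9.80e-08) and -1.49 for Mirg (SE 0.089, limma adjusted p = 1.44e-07).

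The ratios between these RNAs within a library were compared next, and those of Meg3 to Rian and Dlk1 to Meg3 differed between the genotypes by less than the spread between libraries. The log2 ratio of Meg3 to Rian was 0.44 ± 0.23 (SD, n = 3) in Rnf40+/+ and 0.46 ± 0.16 in Rnf40-/- libraries (exact permutation test, two-sided p = 1.0). That of Dlk1 to Meg3, which are expressed from opposite parental chromosomes, was -4.23 ± 0.25 and -4.42 ± 0.38 (exact permutation p = 0.5). The ratio of Rian to Mirg was higher in all 3 Rnf40-/- libraries, by 0.17 on the log2 scale (exact permutation p = 0.1, the smallest that 3 against 3 libraries allow).

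Dio3, which encodes the deiodinase that inactivates thyroid hormone, lies at the far end of the cluster from 111517278 to 111519307 as a single exon. It had few reads, between 10 and 32 per library, with counts of 13.1, 10.2 and 25.6 in Rnf40+/+ and 22.4, 12.5 and 16.1 in Rnf40-/- cells. These overlapped, and the log2 fold change of 0.12 had a standard error of 0.42 (limma adjusted p = 0.833).

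A pair of further imprinted genes of the same cluster, taken from a separate list, moved with these. Begain, which lies before Dlk1, had counts of 196, 189 and 288 in Rnf40+/+ and 80.6, 71.0 and 68.0 in Rnf40-/- cells (log2 fold change -1.58, SE 0.18, limma adjusted p = 2.39e-05). Rtl1, a retrotransposon-derived gene needed in the placenta, had 127, 93.8 and 124 against 36.7, 31.3 and 21.7 (log2 fold change -1.92, SE 0.24, limma adjusted p = 4.78e-05). Rtl1 is overlapped by a transcript on the other strand, and whether strand was used in counting is not given in the sources used here.

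**Figure D3:**
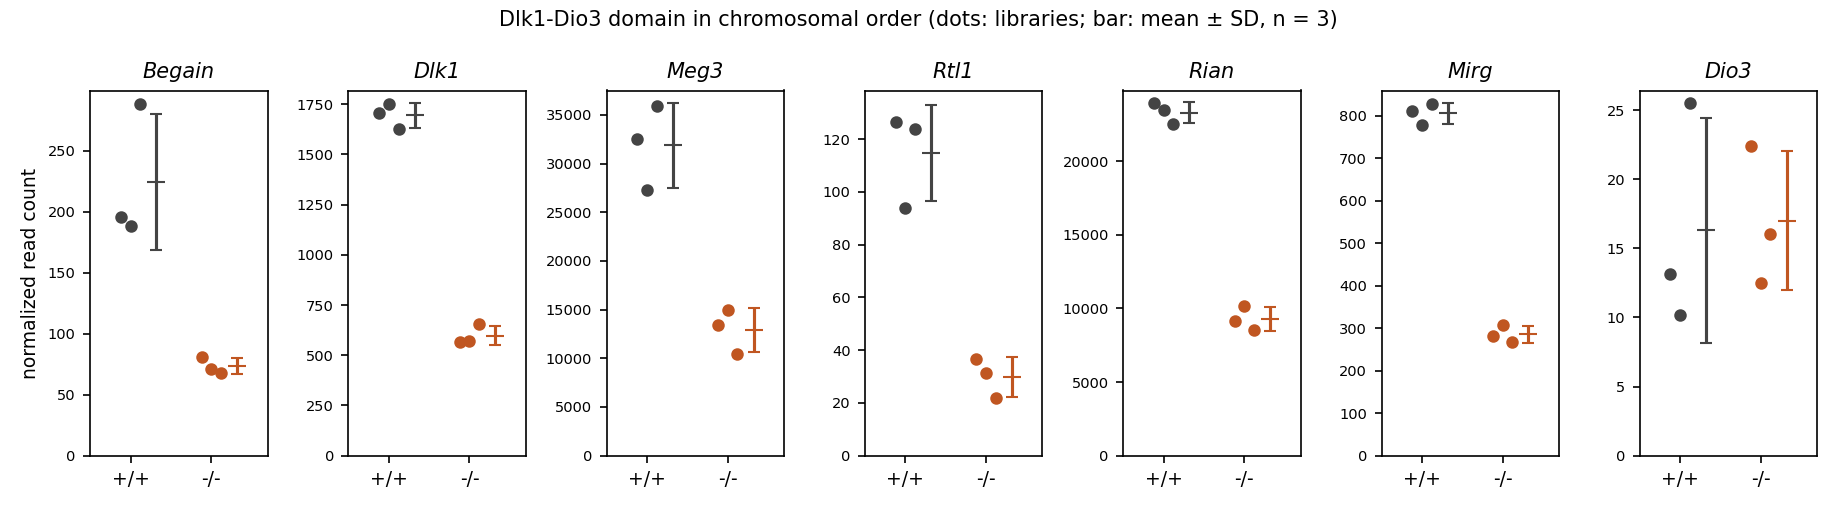
Normalized read count of 7 genes of the Dlk1-Dio3 cluster in each library (dots) with the mean ± SD (bars, n = 3), for Rnf40+/+ (+/+) and Rnf40-/- (-/-) MEFs, on linear axes from 0. In all panels other than Dio3 the dots of the 2 genotypes are separate, with the Rnf40-/- dots lower.

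Within 500 kb on either side of the interval from Begain to Dio3, 12 further genes were tested, of which 3 rose (25.0%) and 2 fell (16.7%), with a median log2 fold change of 0.03. Over all genes tested, 23.3% were higher and 24.1% lower. The lowest was Slc25a29 (-1.12, adjusted p = 0.00439) and the highest Dync1h1 (0.52, adjusted p = 2.63e-05). The flanking genes were looked at after the values of the cluster had been seen, and the difference between cluster and flanks was not tested.

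The start regions of the 4 RNAs that fell together are shown because the genes share a cluster and a direction of change. Each is 250 bases before to 50 bases after the start of the gene (RefSeq, GRCm38.p6, plus strand of chromosome 12), written 5′ to 3′ with CpG dinucleotides in capitals. They lie at chr12:109452573-109452872 (Dlk1), chr12:109540746-109541045 (Meg3), chr12:109603695-109603994 (Rian) and chr12:109734731-109735030 (Mirg).
Dlk1: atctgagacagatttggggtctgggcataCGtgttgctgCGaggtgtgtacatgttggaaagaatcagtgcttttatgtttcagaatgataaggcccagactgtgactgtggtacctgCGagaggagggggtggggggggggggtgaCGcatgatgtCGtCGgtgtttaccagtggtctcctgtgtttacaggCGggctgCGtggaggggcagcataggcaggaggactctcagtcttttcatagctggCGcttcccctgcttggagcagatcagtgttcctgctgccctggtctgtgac
Meg3: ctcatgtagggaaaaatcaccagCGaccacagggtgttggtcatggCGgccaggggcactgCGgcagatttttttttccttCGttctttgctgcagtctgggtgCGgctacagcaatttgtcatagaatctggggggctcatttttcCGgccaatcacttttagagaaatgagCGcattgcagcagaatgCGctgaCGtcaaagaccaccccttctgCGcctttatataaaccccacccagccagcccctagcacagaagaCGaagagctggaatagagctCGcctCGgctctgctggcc
Rian: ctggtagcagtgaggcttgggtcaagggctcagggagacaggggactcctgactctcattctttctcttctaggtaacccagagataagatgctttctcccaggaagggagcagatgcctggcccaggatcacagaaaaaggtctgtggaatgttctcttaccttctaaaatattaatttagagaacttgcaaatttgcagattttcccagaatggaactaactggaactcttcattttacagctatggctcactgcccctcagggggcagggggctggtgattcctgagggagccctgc
Mirg: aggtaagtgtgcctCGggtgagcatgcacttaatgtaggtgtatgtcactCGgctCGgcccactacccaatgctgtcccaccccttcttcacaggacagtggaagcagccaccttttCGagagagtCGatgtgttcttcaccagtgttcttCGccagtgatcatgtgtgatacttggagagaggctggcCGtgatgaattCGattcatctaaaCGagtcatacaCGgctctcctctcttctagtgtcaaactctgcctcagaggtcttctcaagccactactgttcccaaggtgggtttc

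These windows held 9 CpG dinucleotides at Dlk1, 13 at Meg3, 0 at Rian and 10 at Mirg, while the median over the windows of 27025 genes was 8. The Meg3 window also held 1 copy of TGCCGC, the core of the sequence bound by the imprint-protecting zinc finger protein ZFP57, counted on both strands. That hexamer occurred in 12.2% of all windows, and in none of the other three. TATAAA was found at Meg3 once on each strand, in letters that overlap, and in 13.8% of all windows. The start regions of the cluster's 4 genes ranged from no CpG to more than the median. Whether the letters of these windows had a part in the fall was not tested.

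H19, a maternally expressed non-coding RNA that is abundant in embryonic tissue and shut off after birth in most organs, had the largest fall among the 33 genes. It maps to bases 149761434 to 149764048 of mm9 chromosome 7 (minus strand) and has 5 exons. The Rnf40+/+ libraries had 1563, 1277 and 4256 normalized counts, and the Rnf40-/- libraries had 309, 177 and 247, which is 10.3% of the Rnf40+/+ mean. The third Rnf40+/+ value was far above the other two, so the size of the fall depended on it while its direction did not. The log2 fold change was -3.09 (SE 0.35, limma adjusted p = 1.95e-05) and was between -3.43 and -2.56 with each library left out in turn. H19 is known to be high in muscle. The summed level of 4 muscle markers was 434, 130 and 117 in Rnf40+/+ replicates 1, 2 and 3 and between 27.1 and 43.4 in Rnf40-/- libraries, with Myod1 at 0 in all. Of these markers only Des, the intermediate filament desmin, had more than 20 reads in any library. The part of muscle cells in the values of H19 was not tested.

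In the Kcnq1 cluster on distal chromosome 7, genes moved in both directions. The neighbours Cd81 and Tssc4 fell to 44.4% and 50.5% of their Rnf40+/+ means, while Slc22a18 and the non-coding RNA Kcnq1ot1 rose and Ascl2 had more reads in Rnf40-/- than in Rnf40+/+ libraries. Kcnq1ot1 is expressed from the paternal chromosome and silences its neighbours there, and the others are known as maternally expressed, in several cases mainly in the placenta.

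Cd81 encodes a tetraspanin of the cell surface and had the highest level per kilobase of transcript of the 36 imprinted genes with an annotated length (11500 normalized counts per kb in Rnf40+/+ and 5103 in Rnf40-/- cells). It lies from 150238644 to 150253839 on the plus strand. Its counts were 16961, 17999 and 17937 in Rnf40+/+ and 7794, 7458 and 8215 in Rnf40-/- libraries, a log2 fold change of -1.17 (SE 0.066, limma adjusted p = 9.26e-08). Tssc4, its neighbour, which encodes a factor of spliceosome assembly, had 1838, 2026 and 2290 against 1088, 935 and 1083 (log2 fold change -0.98, SE 0.092, limma adjusted p = 4.47e-06). Neither gene had overlapping groups, and the log2 ratio of Cd81 to Tssc4 was 3.11 ± 0.12 in Rnf40+/+ and 2.92 ± 0.077 in Rnf40-/- libraries (SD, n = 3, exact permutation p = 0.2, where 0.1 is the smallest possible).

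Ascl2, a transcription factor required for the spongiotrophoblast of the placenta, was barely detected in Rnf40+/+ cells. Its counts were 10.7, 6.12 and 4.79 in Rnf40+/+ (between 6 and 9 reads) and 26.5, 16.7 and 34.9 in Rnf40-/- libraries. The log2 fold change was 1.73 (SE 0.43). It is given without a p value, since the gene passed the filter on low counts only through the group in which it was high. Trophoblast markers had a summed level of 72.4 to 98.2 in Rnf40+/+ and 166 to 218 in Rnf40-/- libraries, where 1 of the 3 markers in the table was called higher and 2 of the 3 reached 20 reads in any library. Their part in the values of Ascl2 was not tested.

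Kcnq1ot1 lies antisense to Kcnq1, and its reads could not be separated from that gene by strand with certainty, although Kcnq1 itself had at most 4.17 normalized counts. It had counts of 1190, 899 and 1088 in Rnf40+/+ and 1537, 1500 and 1119 in Rnf40-/- cells. The groups overlapped, since the third Rnf40-/- library was within the Rnf40+/+ range. The log2 fold change of 0.38 (SE 0.13, limma adjusted p = 0.0264) lost its call without Rnf40+/+ replicate 2 (0.27, adjusted p = 0.129), Rnf40-/- replicate 1 (0.30, adjusted p = 0.117) or Rnf40-/- replicate 2 (0.32, adjusted p = 0.114). The log2 ratio of Cd81 to Kcnq1ot1 was lower in every Rnf40-/- library, at 4.07 ± 0.25 in Rnf40+/+ and 2.51 ± 0.32 in Rnf40-/- cells (SD, n = 3, exact permutation p = 0.1, the smallest possible).

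Slc22a18, a member of the organic cation transporter family, had counts of 64.5, 74.4 and 71.9 in Rnf40+/+ and 150, 74.1 and 129 in Rnf40-/- libraries. Its second Rnf40-/- library was within the Rnf40+/+ range, and the log2 fold change of 0.68 (SE 0.24, limma adjusted p = 0.0351) did not hold with 4 of the 6 libraries left out. Without Rnf40-/- replicate 1 it was 0.48 (adjusted p = 0.164). Phlda2, which limits placental growth, had too few reads to be tested, with 34.6 normalized counts in Rnf40+/+ replicate 1 and between 2.04 and 11.5 in the other five libraries.

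At the Peg10-Sgce locus on proximal chromosome 6, neighbouring genes with a shared parental origin moved in opposite directions. Sgce and Peg10 are both expressed from the paternal chromosome and are transcribed away from each other, with 101 bases between their annotated ends in mm9 (Sgce from 4624350 to 4697204 on the minus strand, Peg10 from 4697306 to 4710514 on the plus strand). Sgce fell and Peg10 rose, as did the maternally expressed genes Ppp1r9a and Asb4 farther along. Between Ppp1r9a and Asb4 lie Pon3, which fell, and Pon2, which rose, both imprinted genes of the separate list.

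Sgce encodes epsilon-sarcoglycan, a membrane protein linked to the dystrophin complex. It had 1304, 1282 and 1289 normalized counts in Rnf40+/+ and 570, 605 and 662 in Rnf40-/- libraries (47.4% of the Rnf40+/+ mean), with a log2 fold change of -1.08 (SE 0.077, limma adjusted p = 5.89e-07). Peg10, a retrotransposon-derived gene required for the placenta, had 820, 960 and 808 against 1121, 1276 and 1131 (log2 fold change 0.45, SE 0.088, limma adjusted p = 0.00126). In neither gene did the genotypes overlap. The log2 ratio of the read counts of Peg10 to Sgce was -0.59 ± 0.15 in Rnf40+/+ and 0.94 ± 0.15 in Rnf40-/- libraries (SD, n = 3, exact permutation p = 0.1, the smallest possible). The transcript of Peg10 is longer, and per kilobase of transcript the level of Sgce was above that of Peg10 in both genotypes (584 against 130 normalized counts per kb in Rnf40+/+ and 277 against 177 in Rnf40-/- cells).

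Ppp1r9a, which encodes the actin-binding protein neurabin, had 62.1, 44.9 and 39.9 counts in Rnf40+/+ and 81.6, 99.1 and 96.3 in Rnf40-/- cells (log2 fold change 0.92, SE 0.21, limma adjusted p = 0.00387). Asb4, a subunit of a ubiquitin ligase, had 62.1, 80.6 and 58.3 against 108, 95.0 and 117 (log2 fold change 0.67, SE 0.19, limma adjusted p = 0.0110). The genotypes were separate for both, but the call of Asb4 was lost without Rnf40-/- replicate 3 (0.60, adjusted p = 0.0511). Neural markers, given here because neurabin is abundant in neurons, had overlapping summed levels of 1821 to 3214 in Rnf40+/+ and 1969 to 2204 in Rnf40-/- libraries.

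Beyond the Sgce end of the locus, Casd1 (an imprinted gene of the separate list) was 426, 425 and 389 in Rnf40+/+ and 395, 497 and 392 in Rnf40-/- cells and did not pass the test (log2 fold change 0.04, SE 0.11, limma adjusted p = 0.783). Pon3 and Pon2, of the same list, lie between Ppp1r9a and Asb4. Pon3 fell (log2 fold change -0.86, SE 0.12, limma adjusted p = 1.06e-04) and Pon2 rose (0.36, SE 0.071, limma adjusted p = 0.00141). Of the 3 genes tested within 500 kb that are in neither set of imprinted genes, Col1a2, a fibroblast collagen beyond Casd1, had a log2 fold change of -2.26 (limma adjusted p = 7.63e-09). At the other end of the locus, Pdk4 had one of 0.68 (limma adjusted p = 2.63e-04) and Dync1i1 one of 1.00 (limma adjusted p = 0.0136).

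**Figure D4:**
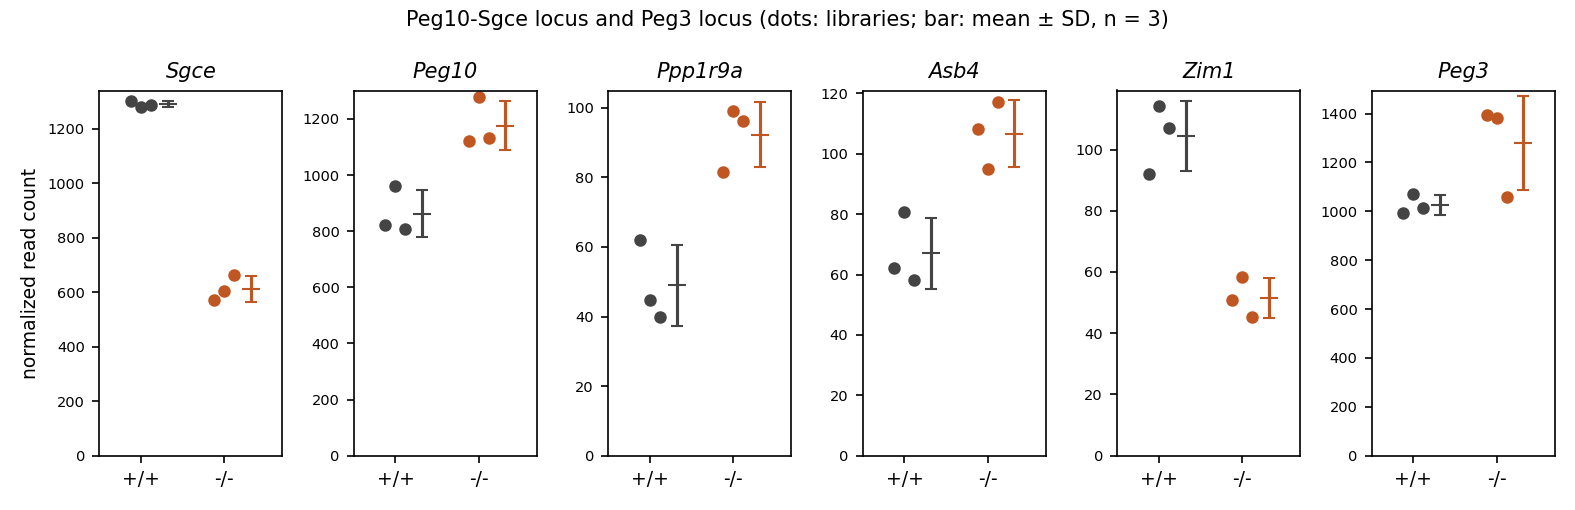
Normalized read count per library (dots) and mean ± SD (bars, n = 3) for 4 genes of the Peg10-Sgce locus and 2 of the Peg3 locus, on linear axes from 0. The Rnf40-/- dots are lower for Sgce and Zim1 and mostly higher for Peg10, Ppp1r9a, Asb4 and Peg3, where 1 Peg3 dot of the Rnf40-/- group lies among those of the Rnf40+/+ group.

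At the Peg3 locus near the start of chromosome 7, neighbouring genes of opposite parental origin differed in direction. Zim1, a zinc finger gene expressed from the maternal chromosome, lies from 6628154 to 6649161 and had 92.0, 114 and 107 counts in Rnf40+/+ and 51.0, 58.4 and 45.3 in Rnf40-/- libraries. Zim1 fell by 1.00 on the log2 scale (SE 0.19, limma adjusted p = 9.75e-04), and the genotypes did not overlap. Peg3, the paternally expressed zinc finger gene next to it from 6656603 to 6683132, had 994, 1071 and 1014 against 1396, 1383 and 1058. Its log2 fold change of 0.31 (SE 0.10, limma adjusted p = 0.0261) was called over all libraries, but not without Rnf40+/+ replicate 1 (0.28, adjusted p = 0.0544), Rnf40-/- replicate 1 (0.24, adjusted p = 0.125) or Rnf40-/- replicate 2 (0.24, adjusted p = 0.119).

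Usp29, which encodes a ubiquitin-specific protease, starts beside Peg3 and is read in the other direction. Its counts of 16.7, 34.7 and 36.7 in Rnf40+/+ and 23.5, 27.1 and 45.3 in Rnf40-/- cells overlapped, and the log2 fold change was 0.14 (SE 0.36, limma adjusted p = 0.779). The log2 ratio of Peg3 to Zim1 was 3.30 ± 0.11 in Rnf40+/+ and 4.63 ± 0.13 in Rnf40-/- libraries (SD, n = 3, exact permutation p = 0.1, the smallest possible). The start regions of Peg3 and Usp29 overlap at chr7:6730370-6730632 (RefSeq, GRCm38.p6). The stretch they share is given on the plus strand, in the direction of Usp29, with its 13 CpG dinucleotides in capitals, to show the sequence from which a pair of RNAs of unlike level is read.
Peg3 and Usp29: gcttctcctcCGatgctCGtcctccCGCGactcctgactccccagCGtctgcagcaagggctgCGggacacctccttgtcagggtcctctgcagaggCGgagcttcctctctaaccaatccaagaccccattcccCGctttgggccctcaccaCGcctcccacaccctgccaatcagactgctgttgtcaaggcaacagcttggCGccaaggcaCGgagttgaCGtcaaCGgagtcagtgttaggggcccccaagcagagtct

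Of the 11 other genes tested within 500 kb of the Peg3 locus, many of them zinc finger genes, none rose and 2 fell (18.2%, against 24.1% of all genes), Zfp583 (-0.96, adjusted p = 0.00717) and Clcn4-2 (-0.35, adjusted p = 0.00271). These were also looked at after the values had been seen.

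In the Prader-Willi/Angelman region of chromosome 7, 3 of 5 genes tested fell and none rose. Over all genes tested, 24.1% were lower and 23.3% higher. The 3 are expressed from the paternal chromosome, as are all of the 5 other than Ube3a. Ndn, the gene of the growth-restraining protein necdin, lies from 69493163 to 69494814 as a single exon and had 2433, 2909 and 2809 counts in Rnf40+/+ and 1560, 1550 and 1725 in Rnf40-/- libraries. It fell to 59.3% of the Rnf40+/+ mean (log2 fold change -0.75, SE 0.080, limma adjusted p = 1.32e-05), with a wide gap between the genotypes. Peg12, a single-exon gene also known as Frat3, had 147, 198 and 144 against 115, 88.7 and 106 (log2 fold change -0.65, SE 0.17, limma adjusted p = 0.00852).

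Snrpn, which encodes a spliceosomal protein and starts at the imprinting centre of the region, had 670, 573 and 536 counts in Rnf40+/+ and 491, 461 and 501 in Rnf40-/- cells. The groups were separate by a small margin, and the log2 fold change of -0.28 (SE 0.098, limma adjusted p = 0.0308) was lost on leaving out any single library other than Rnf40+/+ replicate 3, with adjusted p between 0.0531 and 0.121. Snurf, which shares its transcript with Snrpn and has a row of its own in the table, had a log2 fold change of -0.31 that did not pass the test (SE 0.15, limma adjusted p = 0.106), and the reads of the pair could not be assigned with certainty. Within the region, the log2 ratio of Ndn to Snrpn was 2.20 ± 0.29 in Rnf40+/+ and 1.73 ± 0.060 in Rnf40-/- libraries (SD, n = 3, exact permutation p = 0.1, the smallest possible).

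Mkrn3, a ubiquitin ligase known for its part in the timing of puberty, had 43.0, 31.6 and 54.3 counts against 21.4, 40.7 and 45.3, and did not pass the test (log2 fold change -0.29, SE 0.32, limma adjusted p = 0.485). Ube3a, the ubiquitin ligase of Angelman syndrome, is expressed from both chromosomes outside neurons. Its counts were 1081, 962 and 888 in Rnf40+/+ and 1095, 1098 and 1027 in Rnf40-/- cells (log2 fold change 0.14, SE 0.083, limma adjusted p = 0.190). It was past the threshold only without Rnf40+/+ replicate 1 (0.22, adjusted p = 0.0489). Magel2 had between 0.799 and 9.18 normalized counts in the 6 libraries and was not tested.

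On distal chromosome 2, Nnat fell strongly while Gnas did not pass the test. Nnat encodes neuronatin, a small membrane protein of the endoplasmic reticulum, and lies from 157385814 to 157388258 on the plus strand. Its counts were 148, 173 and 136 in Rnf40+/+ and 33.6, 34.4 and 35.9 in Rnf40-/- libraries, 22.7% of the Rnf40+/+ mean, with a log2 fold change of -2.10 (SE 0.18, limma adjusted p = 2.68e-06). The Rnf40-/- libraries were nearly equal to each other. The table also has a row for Peg5, which RefSeq lists as an older name of Nnat, with 89.6, 87.7 and 68.7 against 25.5, 23.0 and 17.0 (log2 fold change -1.87, SE 0.25, limma adjusted p = 7.39e-05). Since the 2 rows stand for one gene, they are no independent evidence of its fall.

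Nnat lies in an intron of Blcap, an imprinted gene of the separate list that is expressed from both chromosomes in most tissues. Blcap fell as well, but by less, from 2021, 1985 and 2075 to 1435, 1452 and 1435 (log2 fold change -0.49, SE 0.061, limma adjusted p = 4.64e-05). Gnas, which encodes the stimulatory G protein alpha subunit and whose imprinting depends on tissue and transcript, had 33553, 31363 and 31440 counts in Rnf40+/+ and 30061, 29731 and 31398 in Rnf40-/- cells. These overlapped slightly, and its log2 fold change was -0.08 (SE 0.071, limma adjusted p = 0.389). The row of Gnas sums several transcripts of opposite imprinting, which the table does not separate.

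Impact, a regulator of translation that inhibits the kinase GCN2, fell as well. Its counts were 5474, 5973 and 5417 in Rnf40+/+ and 2932, 3144 and 2831 in Rnf40-/- libraries, 52.8% of the Rnf40+/+ mean (log2 fold change -0.92, SE 0.067, limma adjusted p = 6.80e-07). Airn, the paternally expressed non-coding RNA of the imprinted cluster on chromosome 17, had 60.9, 35.7 and 56.7 counts against 97.9, 71.0 and 74.6. Airn overlaps a gene on the other strand, so its reads are uncertain where strand was not used in counting. The genotypes did not overlap, but the log2 fold change of 0.68 (SE 0.24, limma adjusted p = 0.0365) lost its call in the Wald test of DESeq2 (adjusted p = 0.0504) and without 4 of the 6 libraries, where adjusted p was up to 0.150. Slc22a3, in the same cluster, had no read in 5 libraries and 1 read in the sixth.

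The remaining genes changed by less than 0.5 on the log2 scale or did not pass the test. Grb10, which encodes an adaptor that dampens insulin signalling, fell from 17080, 17979 and 16582 to 12229, 12848 and 12040 normalized counts (log2 fold change -0.48, SE 0.066, limma adjusted p = 1.02e-04). Slc38a4, an amino acid transporter, had a log2 fold change of -0.42 (limma adjusted p = 0.0158), and Plagl1, a zinc finger gene of growth control, one of 0.20 (adjusted p = 0.0421). Both lost their call with some libraries left out, Slc38a4 without Rnf40+/+ replicate 2 or Rnf40-/- replicate 2 and Plagl1 without 4 of the 6.

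Mest, a paternally expressed gene of mesoderm, is named here because its Rnf40+/+ libraries disagreed. It had 396, 333 and 691 counts in Rnf40+/+ and 522, 518 and 531 in Rnf40-/- cells, with a log2 fold change of 0.22 (SE 0.20, limma adjusted p = 0.402). The Rnf40-/- values were nearly equal to each other and lay between those of Rnf40+/+ replicate 3 and the other two, and without that replicate the log2 fold change was 0.52 (adjusted p = 8.10e-04). Copg2, whose annotated end overlaps that of Mest by 904 bases on the other strand, had a log2 fold change of -0.05 (adjusted p = 0.631), and Zdbf2 one of -0.18 (adjusted p = 0.343). Rasgrf1 had between 4.08 and 12.8 normalized counts and was not tested.

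**Figure D5:**
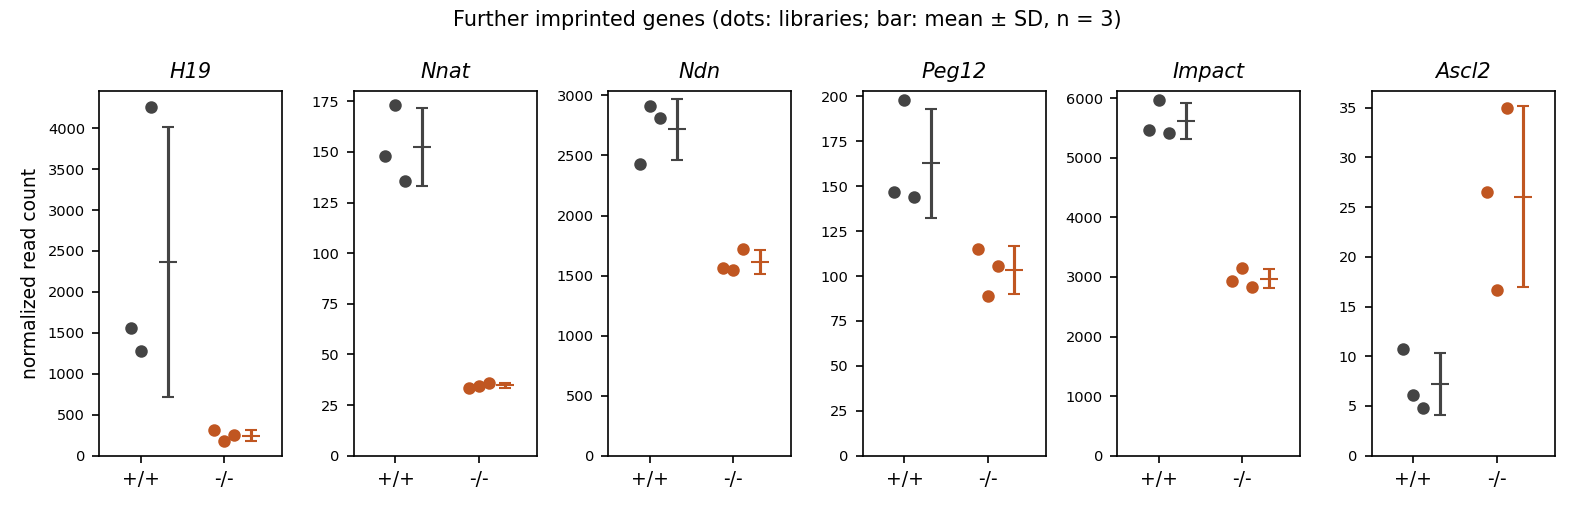
Normalized read count per library (dots) and mean ± SD (bars, n = 3) of H19, Nnat, Ndn, Peg12, Impact and Ascl2 in Rnf40+/+ (+/+) and Rnf40-/- (-/-) MEFs, on linear axes from 0. The Rnf40-/- dots are lower in all panels other than Ascl2, and Rnf40+/+ replicate 3 of H19 (4256) lies far above the other two.

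The direction of change was not the same for all genes of one parental origin. Genes were classed by the parent of origin known from tissues in which they are imprinted. Of 18 genes classed as paternally expressed and tested, 8 were lower and 5 higher, with a median log2 fold change of -0.23. Of 14 classed as maternally expressed, among them Ube3a, 8 were lower and 4 higher, with a median of -0.73. The 4 include Ascl2, which was tested only because of its reads in the Rnf40-/- group. Over all genes tested, 24.1% were lower and 23.3% higher, so the shares that were higher were near the background in both classes. At Peg10-Sgce the paternal genes moved both ways. Within the Peg3 locus the maternal gene Zim1 fell and the paternal gene Peg3 was higher. Within the Kcnq1 cluster the maternal genes Cd81 and Tssc4 fell and Slc22a18 was higher. The calls of Peg3 and Slc22a18 were lost with some libraries left out. No test of the difference between the parental classes was made.

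The start regions of 33 of the 37 genes were matched to RefSeq windows of 300 bases (for genes with several starts, the window with the most CpG). H19, Peg10, Sgce and Impact were not matched. The matched imprinted genes had a median of 17 CpG dinucleotides per window, against 8 over all 27025 genes with a window. The median was 12 for the 13 genes with a window that fell, 11 for the 8 that rose and 25 for the 8 that did not pass the test. TGCCGC was present in 8 of the 33 windows (24.2%, against 12.2% of all windows) and in 5 of the 13 of genes that fell, which were Meg3, Zim1, Snrpn, Nnat and Grb10. It was also in 2 of the 8 windows of genes that did not pass the test and in 1 of the 8 of genes that rose. GGGCGG, a motif of GC-rich promoters, was in 18 of the 33 (54.5%, against 37.3%), and TATAAA in 6 (18.2%, against 13.8%), both strands being searched. These are descriptions of the letters in the windows and were not tested.

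A separate list held 37 further imprinted genes. Of these, 36 were in the table and 28 were tested, and as many were higher as lower, 9 each (32.1%, against 23.3% and 24.1% of all genes), with a median log2 fold change of -0.01. Beside Begain and Rtl1, those that changed most included Nap1l5, a paternally expressed nucleosome assembly gene, which fell from 22.7, 32.6 and 40.7 to 8.16, 10.4 and 15.1 (log2 fold change -1.43, limma adjusted p = 0.00648). Dhcr7, the last enzyme of cholesterol synthesis at the edge of the Kcnq1 cluster, fell by 1.19 and the serotonin receptor gene Htr2a by 0.97 on the log2 scale. Tspan32, a tetraspanin gene close to Cd81, had 3.58, 5.10 and 7.99 normalized counts in Rnf40+/+ and 29.6, 19.8 and 37.8 in Rnf40-/- libraries. Like Ascl2, it passed the filter on low counts only through the Rnf40-/- group, and no p value is given. It is among the 9 counted as higher, so without it fewer genes were higher than lower. Ddc, the decarboxylase gene next to Grb10, rose by a log2 fold change of 2.06 (adjusted p = 0.0149), which was lost on leaving out a library (adjusted p up to 0.0712), and Qpct rose by 0.96 (adjusted p = 1.42e-05).

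A further list held 20 genes whose products are known to protect, copy or remove the methylation of imprints. Of these, 19 were tested, 5 were higher (26.3%) and 6 lower (31.6%), near the 23.3% and 24.1% of all genes, with a median log2 fold change of 0.14. Those that fell included Uhrf1, which brings the maintenance DNA methyltransferase to newly replicated DNA, from 395, 347 and 422 to 97.9, 56.4 and 69.9 normalized counts (log2 fold change -2.39, limma adjusted p = 1.09e-06). Hells, a chromatin remodeler of DNA methylation, fell by 1.87, the histone methyltransferase gene Ehmt2 by 0.65, and the imprint-protecting Zfp57 and its partner Trim28 by 0.60 and 0.52 on the log2 scale. The methyltransferase gene Dnmt1 fell by 0.42. Arid4b and Ehmt1 rose by 0.52 and 0.43. These are mRNA levels of whole cultures, and DNA methylation was not measured in these libraries.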

How the data were processed

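RNA-seq of 3 Rnf40+/+ and 3 Rnf40-/- MEF samples was taken from the gene table that was deposited. Mapping was to the UCSC mm9 mouse transcriptome and normalization was done in DESeq by the authors, and the submitters' processing notes name Bowtie2 (version 2.1.0) and DESeq (version 1.14.0). As deposited, the signal equals the reads of a gene over the size factor of its library. Multiplied by that factor, 100% of the values in each library were whole (within 0.01 reads), and these reads were used for filters and count tests. How reads were assigned to genes, and whether strand was used with the directional kit, is not given in the sources used here.

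Genes kept by filterByExpr of edgeR (version 4.0.16) were tested with limma (version 3.58.1, trend) on log2(normalized count + 1), a scale that understates changes of low genes, with a single term for genotype and adjustment by Benjamini-Hochberg over 16378 genes. The tests were checked on simulated data. Ratios between genes were compared with two-sided exact permutation tests over libraries, 8 in all, of which none can be below 0.1 and none was adjusted. No pair of libraries agreed within sampling noise. Same-numbered samples of the 2 genotypes did not deviate together (correlations of 0.012, 0.017 and 0.021). With 3 libraries per genotype this check cannot exclude pairing. The sources used here do not say whether the numbers pair the samples, and the main test used no pairing.

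Every library's value is given for genes with an adjusted p under 0.05 and a log2 fold change of at least 0.5, and for other genes of such loci with a mean of at least 10. Up to 8 called genes with the largest changes are named from each separate list. Grb10, Mest, Casd1, Pon2, Pon3, Blcap and the flanking genes are named beyond this rule, after their values were seen. The genes and lists were chosen with earlier results of these data known. Positions are from the gencode annotation of mm9, and start regions from RefSeq (GRCm38.p6). Alternatives were the size factors and the Wald test of DESeq2 (version 1.42.0), upper-quartile scaling, edgeR's quasi-likelihood test, no filter, 10 reads in every library, a mean above 15, pseudocounts of 0.1 and 10, a replicate block, the criteria of the study, and each library left out. Computations used R (version 4.3.3) and Python (version 3.11.15). Some imprinted genes are not reported here.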

Additional observations from a re-analysis of the deposited data

How the results depend on the processing

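The counts of 16 lower and 9 higher imprinted genes were within 1.5 times under each other scaling, test, filter and pseudocount tried, and the median of all genes tested moved by less than 0.1. The criteria of the study gave 9 lower and 1 higher, as they ask for a larger change. With each library left out in turn, 14 to 16 were lower and 4 to 10 higher, with 5 higher without Rnf40+/+ replicate 2 or Rnf40-/- replicate 2 and 4 without Rnf40-/- replicate 1. The median log2 fold change was -0.18 with no filter, where all 37 genes enter, and between -0.31 and -0.13 with a library left out. A replicate block gave 16 lower and 9 higher genes and a median of -0.28, although the sources used here do not say that same-numbered samples were paired. Of the 25 genes called, 17 (14 lower and 3 higher) were past the threshold in every one of the 16 alternatives in which they were tested, and 1 of the 3 higher was Ascl2, which was not tested with 10 reads required in every library. The 8 others were Kcnq1ot1, Slc22a18, Airn, Peg3, Asb4, Snrpn, Plagl1 and Slc38a4. No called gene changed its direction. With no filter, the calls of Slc22a18 (adjusted p = 0.0505), Airn (0.0577) and Plagl1 (0.0502) were lost as more genes were tested, and the Wald test of DESeq2 also lost Plagl1 (0.0634). With 3 libraries per genotype and few reads, small changes of genes such as Dio3, Usp29 and Mkrn3 were not detectable.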
